A study of Homo sapiens with 6 samples.

Results

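The unfolded protein response (UPR) and the folding and disposal machinery of the endoplasmic reticulum (ER) were followed here through 44 genes. They were chosen by symbol from general knowledge of the pathway, with earlier results of these data known. They make up 44 of the 30735 genes in the deposited files. They comprise the ER stress sensors, the transcription factors below them, the chaperones and oxidoreductases of the ER lumen, the genes of ER-associated degradation (ERAD), and a few stress targets and transport genes. Each symbol matched a single Ensembl identifier in all 6 samples. The samples were bulk RNA of PANC-1, an established human pancreatic cancer cell line, cultured in DMEM with serum. In 3 samples the cells had been transfected with CD73 siRNA and in 3 with negative control, in both groups with Lipofectamine 3000 in serum-free medium, so the controls carry the transfection as well. CD73, encoded by NT5E, is a cell surface enzyme that makes adenosine. The study's methods give a single catalogue number for the CD73 siRNA without a sequence, and the time between transfection and RNA extraction is not given in the sources used here.

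Proteins that enter the secretory pathway fold in the ER with the help of chaperones such as BiP (HSPA5), lectins such as calnexin and calreticulin, and disulfide isomerases. When unfolded proteins accumulate, the sensors IRE1α (ERN1), PERK (EIF2AK3) and ATF6 signal to the nucleus. IRE1α splices XBP1 mRNA, PERK phosphorylates eIF2α and thereby favours translation of ATF4, and ATF6 is cut free from the membrane in the Golgi. The resulting factors raise transcription of chaperones and ERAD genes, and ATF4 with CHOP (DDIT3) raises TRIB3 and CHAC1. Much of this signalling lies in splicing, translation and proteolysis, which gene-level mRNA values do not record.

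The promoters of the set were searched for the letters of known response elements. The ER stress response element, ERSE, was searched as CCAAT and CCACG with 9 free bases between them. Its variant ERSE-II was searched as ATTGG and CCACG with 1 free base between them. Both strands were searched over the 300 bases from 250 before to 50 after 1 annotated start per gene (RefSeq, GRCh38.p14). Other starts of a gene were not searched. NF-Y binds the CCAAT part, and ATF6 or XBP1 the CCACG part. A promoter was at hand for 40 of the 44 genes. ERSE was found in 7 of the 40 (17.5%), against 22 of 27305 promoters in all (0.0806%), and ERSE-II in 3 (7.5%) against 15 of 27305 (0.0549%). These genes were listed for their known part in the response, so a high share was to be looked for. The matches below are shown because they lie in the genes that read out ATF6 and XBP1 most directly. Capitals mark the fixed letters of the element, and each sequence is written on the strand that carries it.
HSPA5: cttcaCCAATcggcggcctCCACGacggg
HSP90B1: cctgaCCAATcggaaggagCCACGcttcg
CALR: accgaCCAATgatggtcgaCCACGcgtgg
XBP1: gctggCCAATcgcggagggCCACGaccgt
HERPUD1: acgccgATTGGgCCACGttggga
SDF2L1: gttttgATTGGtCCACGcttccg
The HSPA5 stretch lies at chr9:125241386-125241414 on the reverse strand, and its element begins 66 bases before the start searched. That of HSP90B1 lies at chr12:103930211-103930239 (forward), that of CALR at chr19:12938379-12938407 (reverse), and that of XBP1 at chr22:28800598-28800626 (reverse). The ERSE-II stretches lie at chr16:56932019-56932041 (HERPUD1, forward) and chr22:21642108-21642130 (SDF2L1, reverse). A further ERSE was found in HSP90B1 on the other strand, and CANX, CRELD2 and ERO1B held 1 each. HYOU1 held ERSE-II at 2 places, one of which overlaps a match to the XBP1-binding UPRE (TGACGTGG). UPRE was found in HYOU1 and VCP, and the amino acid response letters TTGCATCA, which ATF4 partners can bind, in CHAC1 and HERPUD1. All promoters held UPRE in 0.795% and TTGCATCA in 0.923%. A match is a description of the letters and not evidence of binding.

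The files hold RPKM (reads scaled to exon length and library size), 1 value per gene and sample. The steps between low values gave library totals from 15009113 to 16836207. NT5E itself was at 3.36, 6.85 and 8.22 RPKM in CD73 siRNA samples 1, 2 and 3, and at 13.96, 13.87 and 17.14 RPKM in the controls, with no overlap between the groups. Of the ductal keratin and SOX9 markers, 4 of 5 were above 1 RPKM in every sample, with a summed level of 124 to 155 RPKM in knockdown cells and 184 to 296 RPKM in controls; their part in the results below was not tested. The acinar, endocrine, leukocyte and endothelial markers that the files list stayed at or below 0.158 RPKM. Of the fibroblast markers only COL1A1 was well expressed, and the list summed to 9.01 to 16.3 RPKM in knockdown cells and 10.6 to 19.2 RPKM in controls. In all, 43 of the 44 genes had at least 1 RPKM in at least 3 samples and entered limma's test on log2(RPKM + 1) with the 12527 genes that passed this filter. The log2 fold changes, pair differences and intervals below are on this scale, where differences are mostly smaller in size than log2 ratios of RPKM.

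Most genes of the pathway showed no resolved difference between CD73 knockdown and control, as was so for most of all genes tested. A single gene of the 43, the stress-induced pseudokinase TRIB3, passed an unadjusted p below 0.01, and it was higher in knockdown cells. That is 2.33% of the 43, where 3.13% of all tested genes passed (1.82% higher and 1.31% lower), so the share is near the background. No gene of the 43 had an adjusted p below 0.05 in limma's test, against 1 of 12527 genes overall (0.00798%), and 4 of the 43 had an unadjusted p below 0.05 (9.3%, against 12.1% of all genes). The median log2 fold change of the 43 genes was 0.00, with 22 above 0 and 21 below, beside a median of 0.01 over all genes tested, of which 52% were above 0. The smallest was -0.41 (EDEM3) and the largest 0.56 (TRIB3). Bulk RNA does not tell a change in every cell from a change in a share of the cells.

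The labels state no pairing of the samples. Samples with the same replicate number deviated together across genes, with correlations of 0.20, 0.48 and 0.55 for numbers 1, 2 and 3. They were therefore treated as pairs, a choice made from these same values. The link was weakest for number 1. On log2(RPKM + 1), CD73 siRNA sample 1 correlated at 0.964 with control 1 and at 0.978 with control 2. When limma's model held the replicate number as a block, 3 of the 43 genes passed p below 0.01 (6.98%, against 7.57% of all genes), namely TRIB3 and DDIT3, which were higher (4.27% of all genes were), and EDEM3, which was lower (3.3% of all genes). None had an adjusted p below 0.05, nor did any of the 12527 genes. The groups did not overlap in 6 of the 43 genes. XBP1, P4HB, ERO1A and TRIB3 were higher in every knockdown sample than in every control (9.3%, against 10.3% of all genes), and EDEM3 and DERL2 were lower (4.65%, against 8.07%). In 26 of the 43 genes all 3 pairs moved the same way, against 51.4% of all genes. Of these, 15 were higher, where all genes gave 27%, and 11 lower, where all genes gave 24.5%.

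**Figure D1:**
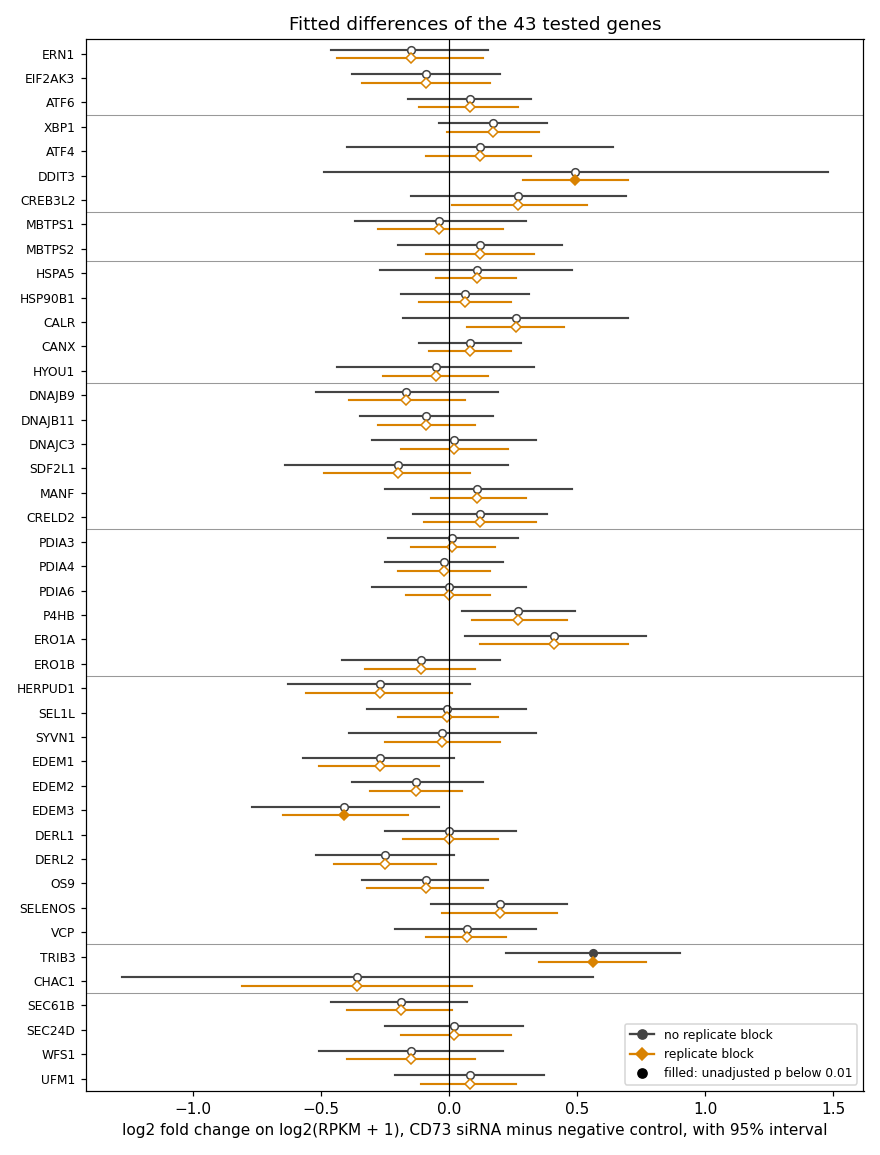
Fitted log2 fold change (CD73 siRNA minus negative control, log2(RPKM + 1)) of the 43 tested genes, grouped by role, with 95% intervals from limma without (circles) and with (diamonds) the replicate number as a block; filled symbols have an unadjusted p below 0.01. TRIB3 is filled in both fits, DDIT3 and EDEM3 with the block only, and most intervals span 0.

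The intervals bound what the knockdown may have done to the others. For 33 of the 43 genes the 95% interval lay entirely within ±0.58 on log2(RPKM + 1), a 1.5-fold change in RPKM + 1. It did so for 68.9% of all genes tested. With the block this held for 38 of 43 genes (81.1% of all genes). All but CHAC1 and DDIT3 had intervals within ±1.0 (2-fold in RPKM + 1) without the block, and all 43 genes had with it. The shares of all genes tested were 94.3% and 96.6%. These intervals measure the spread between these samples and are on a scale that understates the change of low genes. In RPKM the fold at each bound is larger, most of all for low genes.

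Among the sensors, ERN1 (IRE1α, the most conserved of the 3) had 1.56, 1.68 and 1.73 RPKM in CD73 siRNA samples 1, 2 and 3 and 2.17, 1.61 and 2.11 RPKM in the controls. EIF2AK3 (PERK) had 2.69, 3.53 and 2.98 RPKM after CD73 knockdown and 3.09, 3.22 and 3.67 RPKM in controls. ATF6 had 5.72, 6.63 and 6.32 RPKM against 5.48, 5.93 and 6.12 RPKM. In all 3 genes the groups overlapped. The log2 fold changes were -0.15 for ERN1 (95% interval -0.46 to 0.15), -0.09 for EIF2AK3 (-0.38 to 0.20) and 0.08 for ATF6 (-0.16 to 0.32). The Golgi proteases that release ATF6, MBTPS1 (site-1) and MBTPS2 (site-2), had 11.7 and 8.24 RPKM on average in knockdown cells and 11.9 and 7.53 RPKM in controls.

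XBP1, the transcription factor activated by IRE1α splicing, was 21.4, 19.9 and 20.6 RPKM in CD73 siRNA samples 1, 2 and 3 and 18.3, 17.6 and 18.8 RPKM in the controls. Every knockdown sample lay above every control, by little. The log2 fold change was 0.17 (standard error, SE, 0.09, limma's adjusted p = 0.482), and the value covers the spliced and unspliced forms together. ATF4, which acts mainly through its translation, had 126, 209.6 and 154 RPKM after CD73 knockdown and 129.6, 197 and 124 RPKM in controls. The samples numbered 2 were the highest of both groups, and the log2 fold change was 0.12 (95% interval -0.40 to 0.64).

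DDIT3, which encodes the pro-apoptotic factor CHOP, had the widest relative range of the tested genes in the set, its highest sample being 4.39 times its lowest. It had 9.97, 22.9 and 8.26 RPKM in CD73 siRNA samples 1, 2 and 3 and 7.49, 15.5 and 5.21 RPKM in the controls, from 102 to 471 reads per sample. The groups overlapped, yet within each number the knockdown sample was the higher of the pair. The log2 differences were 0.37, 0.53 and 0.58. Without the block the log2 fold change was 0.49 (SE 0.43, limma's adjusted p = 0.67), and with it the standard error was 0.08 and the adjusted p was 0.113. CREB3L2, a membrane-bound relative of ATF6, had 4.18, 5.17 and 4.93 RPKM after CD73 knockdown and 2.61, 4.78 and 4.15 RPKM in controls. It was higher in each pair, with a log2 fold change of 0.27 (95% interval -0.15 to 0.69), and control 1 was the lowest of the 6 samples. Without that control the log2 fold change was 0.08.

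TRIB3, a target of ATF4 and CHOP that has been reported to bind and inhibit AKT, was the gene of the set with the largest increase. The gene lies on chromosome 20 (GRCh38, 362835 to 397559). It had 10.2, 9.05 and 12.8 RPKM in CD73 siRNA samples 1, 2 and 3 and 6.15, 6.53 and 7.95 RPKM in the controls, from 339 to 738 reads per sample. The means were 10.66 ± 1.91 and 6.88 ± 0.95 RPKM (SD, n = 3 each), a ratio of 1.55. Every knockdown sample lay above every control, and the pairs differed by 0.64, 0.42 and 0.62 on log2(RPKM + 1). The log2 fold change was 0.56 (standard error 0.15, 95% interval 0.22 to 0.90), and limma's adjusted p was 0.303, from an unadjusted p of 0.00543. With the block the unadjusted and adjusted values were 0.000489 and 0.113. In the unblocked fit TRIB3 no longer passed p below 0.01 when CD73 siRNA sample 1 (0.0144 by limma), CD73 siRNA sample 3 (0.0184), control 1 (0.0216) or control 2 (0.0165) was left out, with log2 fold changes from 0.43 to 0.66. Its promoter window held none of the 4 elements searched.

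CHAC1, the other ATF4 and CHOP target of the set, degrades glutathione. It had 4.56, 3.74 and 10.51 RPKM in CD73 siRNA samples 1, 2 and 3 and 9.94, 4.10 and 10.6 RPKM in the controls. It did not share the pattern of TRIB3. The pair numbered 1 differed by -0.97 on log2(RPKM + 1), and the other pairs by -0.11 and -0.01. The log2 fold change was -0.36 with a 95% interval from -1.28 to 0.56, so neither direction was resolved.

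**Figure D2:**
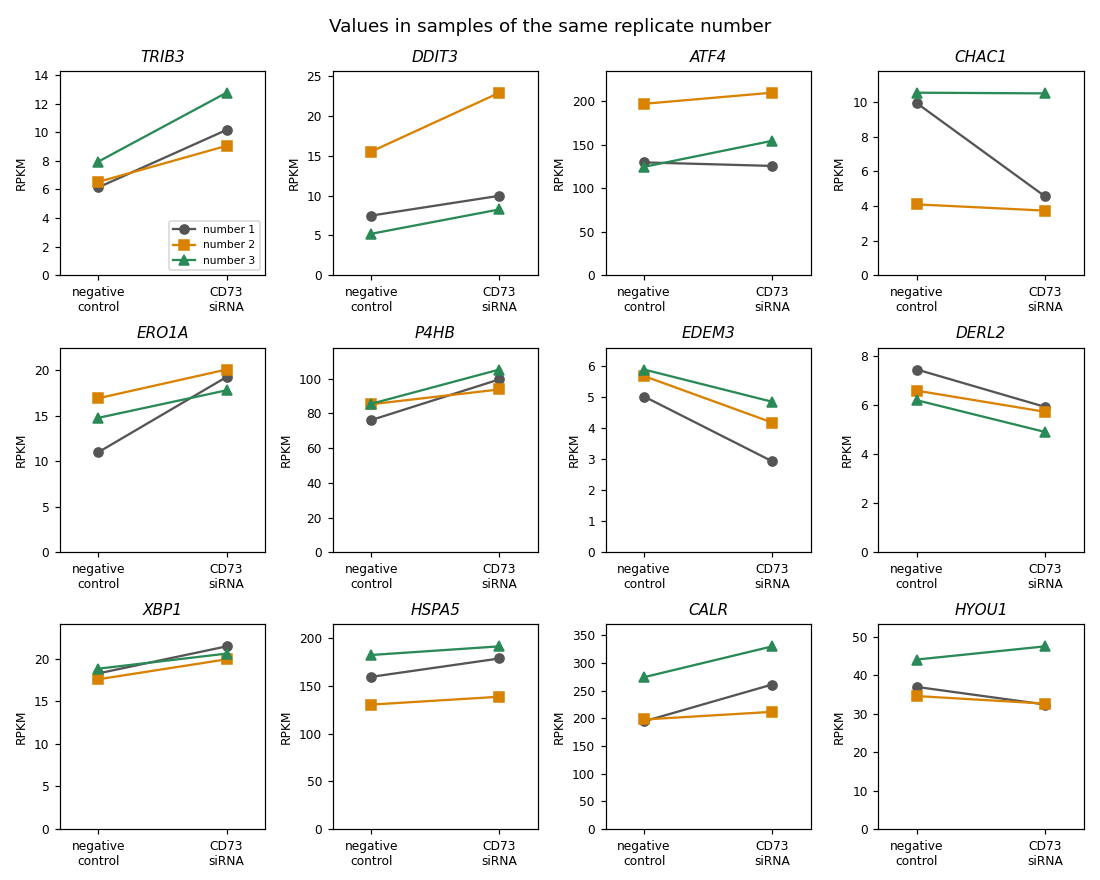
RPKM of 12 genes in negative control and CD73 siRNA samples, with lines joining samples of the same replicate number; all axes start at 0. TRIB3, ERO1A, P4HB and XBP1 lie higher, and EDEM3 and DERL2 lower, in every knockdown sample than in every control, while DDIT3 and ATF4 are highest and HSPA5 is lowest in the samples numbered 2 of both groups.

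The chaperones were among the most abundant genes of the set, and none passed the test in either fit. HSPA5 (BiP), the main Hsp70 of the ER and the classic readout of the UPR, had 179, 139 and 191 RPKM in CD73 siRNA samples 1, 2 and 3 and 159, 130.4 and 182 RPKM in the controls. Each pair was slightly higher in knockdown cells, by 0.16, 0.09 and 0.07 on the log2 scale. The log2 fold change was 0.11, with a 95% interval from -0.27 to 0.48 and, with the block, from -0.05 to 0.26. HSP90B1 (GRP94), the Hsp90 of the ER, had 152, 124 and 126 RPKM after CD73 knockdown and 133, 122 and 128 RPKM in controls.

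CALR (calreticulin, a lectin chaperone) was the most abundant of the 44 genes and differed most among the chaperones. It had 261, 212 and 329.8 RPKM in CD73 siRNA samples 1, 2 and 3 and 194, 198 and 274 RPKM in the controls. The groups overlapped, while each pair was higher in knockdown cells by 0.42, 0.10 and 0.27 on the log2 scale. The log2 fold change was 0.26 (SE 0.19, limma's adjusted p = 0.609), and 0.143 was the adjusted p with the block. For CALR the log2 fold change was 0.10 without CD73 siRNA sample 3, and 0.42 without CD73 siRNA sample 2 or without control 3. CANX (calnexin), its membrane-bound partner, had 209.9, 198 and 209 RPKM against 185, 197 and 202 RPKM. Its range over the 6 samples was the narrowest of the set, with the highest value 1.14 times the lowest. HYOU1 (GRP170), a nucleotide exchange factor of BiP, averaged 37.6 and 38.6 RPKM in knockdown cells and controls.

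The J-domain co-chaperones DNAJB9, DNAJB11 and DNAJC3, the SDF2L1 protein that works with them, and the secreted ER stress proteins MANF and CRELD2 gave log2 fold changes from -0.20 to 0.12, with overlapping groups in all 6. DNAJB9, an XBP1 target that restrains IRE1α, had 5.68, 4.59 and 5.19 RPKM in CD73 siRNA samples 1, 2 and 3 and 7.08, 4.61 and 6.25 RPKM in the controls. SDF2L1 had 22.0, 18.8 and 26.0 RPKM after CD73 knockdown and 32.3, 19.8 and 26.1 RPKM in controls. CRELD2 had 5.43, 5.08 and 5.76 RPKM against 5.50, 4.44 and 4.84 RPKM. In SDF2L1 the pair numbered 1 differed by -0.54 on the log2 scale and the other pairs by -0.07 and -0.01. MANF averaged 19.6 and 18.0 RPKM in the 2 groups, DNAJB11 14.7 and 15.7 RPKM, and DNAJC3 8.74 and 8.65 RPKM.

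None of the 6 oxidative folding genes was called in either fit. P4HB (PDI), the main disulfide isomerase, had 99.7, 93.9 and 105 RPKM in CD73 siRNA samples 1, 2 and 3 and 76.2, 85.3 and 85.6 RPKM in the controls. ERO1A, the oxidase that recharges PDI and is also induced by hypoxia, had 19.2, 20.1 and 17.8 RPKM after CD73 knockdown and 10.98, 16.9 and 14.8 RPKM in controls. In both genes the groups were fully separated and each pair was higher in knockdown cells. The log2 fold changes were 0.27 for P4HB (SE 0.10, 95% interval 0.05 to 0.49, limma's adjusted p = 0.357) and 0.41 for ERO1A (SE 0.15, 95% interval 0.06 to 0.77, limma's adjusted p = 0.363). ERO1A depended on single controls: without control 1 its log2 fold change was 0.25 (limma's unadjusted p = 0.0628), and without control 2 it was 0.54 (0.00683). PDIA3 and PDIA4, other isomerases of the lumen, had ratios of knockdown to control means of 1.01 and 0.98, and PDIA6 averaged 63.4 RPKM after CD73 knockdown and 63.6 RPKM in controls. The 95% intervals of all 3 lay between -0.30 and 0.30 on the log2 scale. ERO1B, the second oxidase, averaged 3.24 RPKM after CD73 knockdown and 3.58 RPKM in controls.

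**Figure D3:**
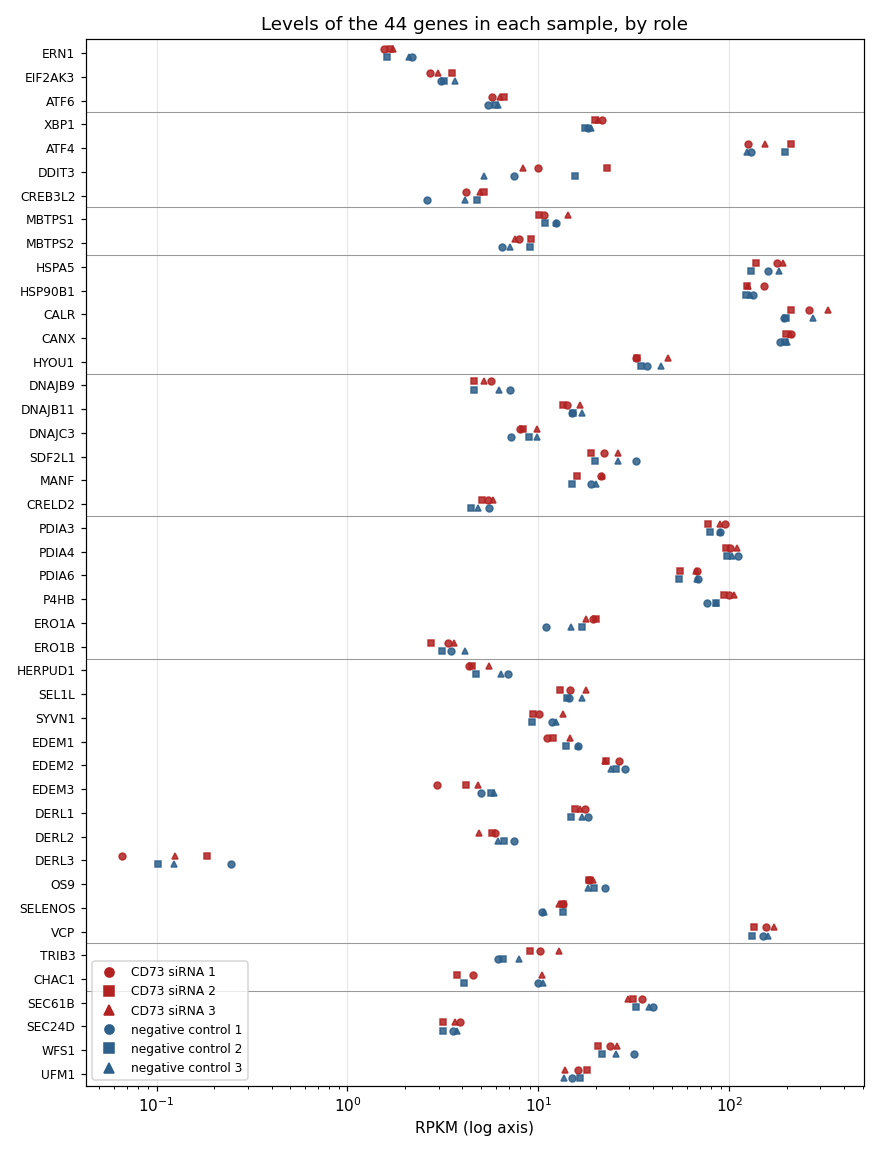
RPKM (log axis) of the 44 genes in each sample, grouped by role from the sensors at the top to the transport genes at the bottom; red, CD73 siRNA; blue, negative control; the symbol shape gives the replicate number. CALR, CANX, HSPA5, HSP90B1, ATF4 and VCP lie at the right, from 122 RPKM upwards, the sensors lie below 10 RPKM, and DERL3 lies below 1 RPKM in every sample.

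Of the ERAD genes, 8 of the 11 tested had a fitted value below 0 and none passed the test without the block (median log2 fold change -0.09). Over all genes tested 6016 of 12527 were below 0 and 3.13% passed. The α-mannosidase-like EDEM proteins, which mark misfolded glycoproteins for disposal, were all on this side. EDEM3 had 2.93, 4.18 and 4.85 RPKM in CD73 siRNA samples 1, 2 and 3 and 5.02, 5.68 and 5.89 RPKM in the controls. EDEM1 had 11.1, 11.9 and 14.7 RPKM against 16.1, 13.9 and 16.1 RPKM. EDEM2 had 26.4, 22.6 and 22.3 RPKM against 28.5, 25.6 and 24.1 RPKM. All 3 were lower in each pair, as were 24.5% of all genes, and of the 3 only EDEM3 had separated groups. The log2 fold change of EDEM3 was -0.41 (SE 0.16, limma's adjusted p = 0.382), and with the block a standard error of 0.10 and an adjusted p of 0.119. CD73 siRNA sample 1 was its lowest, and without that sample the log2 fold change was -0.24.

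DERL2, a derlin of the retrotranslocation complex, had 5.91, 5.71 and 4.89 RPKM in CD73 siRNA samples 1, 2 and 3 and 7.43, 6.57 and 6.18 RPKM in the controls. The groups did not overlap, and the log2 fold change was -0.25 (SE 0.12, limma's adjusted p = 0.438). Its relative DERL1 averaged 16.6 RPKM in both groups. DERL3 was the gene below the filter, with 0.0655, 0.184 and 0.125 RPKM after CD73 knockdown and 0.246, 0.102 and 0.123 RPKM in controls, from 4 to 15 reads, and overlapped between the groups (exact permutation test, two-sided, p = 0.7).

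HERPUD1, a short-lived UPR target that organizes the ubiquitin ligase complex, had 4.34, 4.47 and 5.50 RPKM in CD73 siRNA samples 1, 2 and 3 and 6.97, 4.71 and 6.40 RPKM in the controls. It was lower in each pair, with differences of -0.58, -0.06 and -0.19 on log2(RPKM + 1), but the groups overlapped. SELENOS, a selenoprotein of the same complex, had 13.5, 13.5 and 12.8 RPKM against 10.45, 13.4 and 10.7 RPKM, and was the ERAD gene with the highest log2 fold change, 0.20. The ligase SYVN1 (HRD1) and its partner SEL1L averaged 10.99 and 15.1 RPKM after CD73 knockdown and 11.2 and 15.2 RPKM in controls. The lectin OS9 averaged 18.7 and 20.1 RPKM, and VCP, the cytosolic ATPase that pulls substrates out of the membrane, 155 and 148 RPKM. For each of these 4 the 95% interval included 0 and lay within ±0.39 on the log2 scale.

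SEC61B, a subunit of the translocon, had 34.8, 31.5 and 29.6 RPKM in CD73 siRNA samples 1, 2 and 3 and 39.9, 32.6 and 37.9 RPKM in the controls. WFS1 (wolframin), an ER membrane protein, had 23.7, 20.5 and 26.0 RPKM against 31.7, 21.6 and 25.5 RPKM. Both overlapped between the groups, with log2 fold changes of -0.19 and -0.15. UFM1, a ubiquitin-like modifier used at the ER, averaged 16.0 and 15.1 RPKM, and SEC24D, a COPII coat subunit for ER export, 3.57 and 3.50 RPKM.

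The genes with an ERSE in the promoter window were counted apart from the rest, with no test between them. CALR, CANX, CRELD2, ERO1B, HSP90B1, HSPA5 and XBP1 had a median log2 fold change of 0.11, with 6 of 7 above 0 and 0 called in either fit, beside a median of 0.01 and 52% above 0 over all genes. HERPUD1, HYOU1 and SDF2L1, with ERSE-II, had a median of -0.20, with 0 of 3 above 0 and 0 called. At an unadjusted p below 0.05 limma's test gave 0 of these 10 genes without the block, against 12.1% of all genes. With the block it gave CALR (unadjusted p = 0.0146), but the share of all genes at this limit was not counted for that fit. At 0.01 the share of all genes was 3.13% without the block and 7.57% with it.

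In most genes of the pathway, as in most of all genes tested, the range between replicate numbers exceeded the difference between the groups. On log2(RPKM + 1), the range of the means of the 3 numbers exceeded the absolute group difference in 33 of the 43 genes (76.7%), and in 72.9% of all genes tested. A range over 3 means of 2 samples tends to exceed a difference of 2 means of 3 samples by noise alone. The count therefore says nothing particular about the pathway or the numbers. The samples numbered 2 had the lowest mean in 27 of the 43 genes (62.8%), against 30.7% of all genes, and the highest in 9 (20.9%), against 39.7%. Of the 17 chaperones, co-chaperones and oxidative folding genes, 13 were lowest there and 1 was highest, while 2 of the 3 sensors and 3 of the 4 transcription factors were highest there. Low values in number 2 were not particular to the folding genes. Of the 11 ERAD genes tested, 6 were lowest there and 1 was highest. The same held for 2 of the 2 ATF4 and CHOP targets, and 3 of the 4 transport and other genes were lowest there, with 1 highest. These counts were not tested. HSPA5 had 139 and 130.4 RPKM in the samples numbered 2, against 159 to 191 RPKM in the other 4. ATF4 and DDIT3 went the other way and were highest in the samples numbered 2 of both groups. The labels do not say what the numbers stand for beyond the replicate. The legend of the study's heatmap speaks of separate knockdown experiments (n = 3), without saying how controls were matched to them.

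Outside the 44 genes, 136 of 141 further genes of ER function in 8 lists passed the filter, and 4 of them had an unadjusted p below 0.01 (2.94%, against 3.13% of all genes). One rose and 3 fell, and none had an adjusted p below 0.05 in limma's test. GANAB, the catalytic subunit of glucosidase II, which trims glycans for calnexin binding, rose from 34.0, 74.2 and 45.5 RPKM in controls 1, 2 and 3 to 93.2, 107.6 and 91.8 RPKM in the knockdown samples. Its log2 fold change was 0.99 (SE 0.25, limma's adjusted p = 0.303), larger than that of any of the 44 genes. PRKCSH, the other subunit of the enzyme, averaged 44.9 and 45.3 RPKM.

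KDELR3, a receptor that returns escaped ER proteins from the Golgi, fell from 14.4, 11.7 and 13.1 RPKM in controls 1, 2 and 3 to 9.22, 8.93 and 9.42 RPKM in knockdown cells (log2 fold change -0.46, SE 0.11, limma's adjusted p = 0.303). The more abundant KDELR1 and KDELR2 averaged 70.4 and 79.5 RPKM after CD73 knockdown and 63.6 and 80.9 RPKM in controls. TMX1, a membrane-bound thioredoxin-like oxidoreductase, fell to a ratio of 0.73 and SSR1, a subunit of the translocon-associated protein complex, to a ratio of 0.75. SSR2, SSR3 and SSR4, of the same complex as SSR1, had ratios of 0.98, 1.07 and 0.82 and did not pass the test. No gene passed in the lists of ATF4 targets (0 of 18), other ERAD genes (0 of 22), UFM1 conjugation (0 of 8), membrane-bound transcription factors with NF-Y (0 of 8) and ER stress with apoptosis (0 of 8). With the block 9 of the 136 passed (6.62%, against 7.57% of all genes), among them PPP1R15A (GADD34, which reverses eIF2α phosphorylation), PSAT1, TMED9 and BCL2L1, which were higher, and TNFRSF10B (DR5, a death receptor under CHOP), which was lower.

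**Figure D4:**
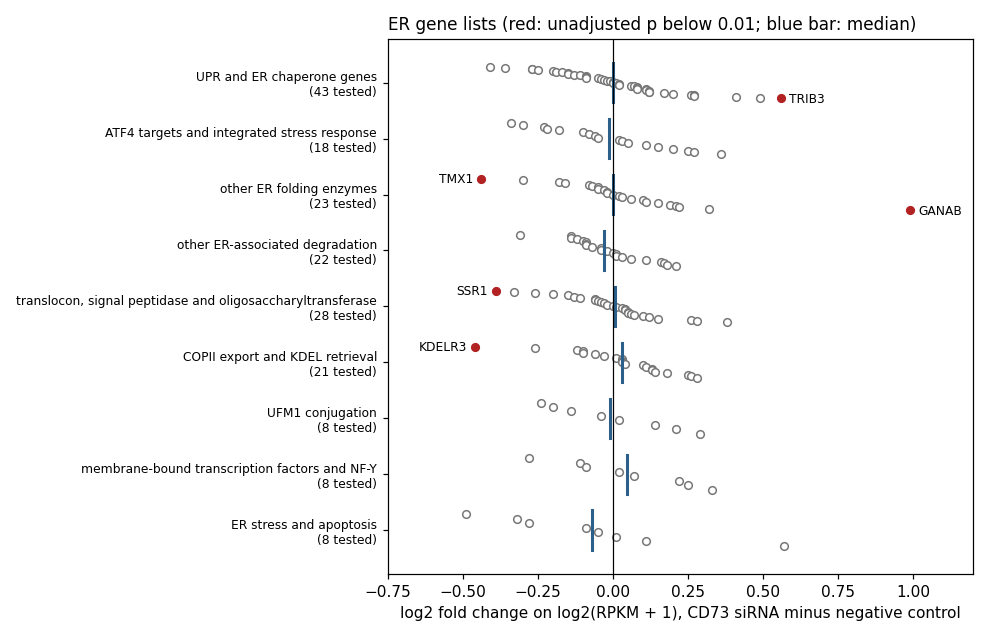
Fitted log2 fold change (CD73 siRNA minus negative control, log2(RPKM + 1)) of each tested gene of the UPR and ER chaperone set and of 8 further lists; red, unadjusted p below 0.01 without the block; blue bar, median of the list. TRIB3 and GANAB are the red genes above 0, TMX1, SSR1 and KDELR3 those below, and every median lies within 0.1 of 0.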

How the data were processed

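Bulk RNA-seq of PANC-1 cells was compared between 3 CD73 siRNA and 3 negative control samples, grouped by their titles. The authors deposited 1 table per sample with RPKM values; the unit is not stated and was read from the values. Multiplied by merged exon length in GENCODE release 29 (GRCh38), 95.5% to 95.6% of genes worth fewer than 1000 reads came within 0.05 of a whole number of reads, which gave the library totals and read numbers. The submitters' processing notes name Bowtie2 2.2.3, HTSeq 0.6.0 and hg38; annotation and strand setting are not given in the sources used here. Of the 30735 identifiers, 132 were absent from release 29.

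Genes that reached 1 RPKM in 3 or more samples were fitted on log2(RPKM + 1) with limma 3.58.1 (eBayes with trend, R 4.3.3) and Benjamini-Hochberg adjustment over all 12527 genes. Calls used an unadjusted p below 0.01; the study gives the same limit without saying whether its p was adjusted. p-values measure the spread between these samples; 3 against 3 cannot give an exact permutation p below 0.1. Samples sharing a number correlated in their deviations from group means (0.20, 0.48 and 0.55 across genes), so the numbers, taken from the titles, were used as a block. The study states no pairing, and the block was chosen from these same values. The members and gene lists were chosen with earlier results of these data known. Genes given in full were the sensors, XBP1, ATF4, DDIT3, HSPA5, HSP90B1, any called in either fit, then the smallest p up to about 25. The fitting script was tested on simulated data. Alternatives were a pseudocount of 0.1, no filter, median-of-ratios scaling, no moderation, the block and each sample left out.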

Additional observations from a re-analysis of the deposited data

How the results depend on the processing

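Of the 43 tested genes, 27 kept the sign of their log2 fold change under all 11 alternatives and 16 did not. The number of pathway genes called (1) was 3 with the replicate block and 0 without moderation across genes, and 0 to 1 when a library was left out; the call without control 2 was ERO1A, the others were TRIB3. The number of all genes called (392) was 948 with the replicate block, 216 without moderation, and 116 (without CD73 siRNA sample 1) to 792 (without control 2). The blocked fit has another model of the spread; for the rest the cause was not tested. The pathway median (0.003) ranged from -0.051 to 0.049 with a library left out. Apart from the calls of DDIT3 and EDEM3, the block changed no call among the 43 genes. Under median-of-ratios scaling PDIA3 was at -0.0039 and DERL1 at -0.01. With a library left out the log2 fold changes spanned 0 in ATF4 (-0.08 to 0.33), MBTPS1 (-0.18 to 0.06), HSPA5 (-0.02 to 0.24), HSP90B1 (-0.03 to 0.12), HYOU1 (-0.23 to 0.04), DNAJC3 (-0.10 to 0.11), MANF (-0.0048 to 0.25), PDIA3 (-0.05 to 0.09), PDIA4 (-0.08 to 0.03), PDIA6 (-0.11 to 0.09), SEL1L (-0.12 to 0.09), SYVN1 (-0.17 to 0.07), DERL1 (-0.07 to 0.07), VCP (-0.02 to 0.16), SEC24D (-0.03 to 0.08) and UFM1 (-0.0041 to 0.17). TRIB3 was called under 6 of 11 alternatives, with adjusted p from 0.113 to 0.751 in limma or the unmoderated fit. DDIT3 ranged from 0.08 (without CD73 siRNA sample 2) to 0.89 (without control 2).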

Other observations

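Targets of the PERK and ATF4 arm took different orders over the replicate numbers. PPP1R15A, the eIF2α phosphatase subunit induced by ATF4, had 14.2, 36.1 and 10.3 RPKM in CD73 siRNA samples 1, 2 and 3 and 9.94, 31.4 and 7.43 RPKM in the controls, so that the samples numbered 2 were far the highest. ATF3, a stress-induced repressor, had 1.74, 4.88 and 1.01 RPKM in knockdown cells and 1.77, 3.60 and 1.02 RPKM in controls, in the same order. ASNS, the asparagine synthetase gene that ATF4 also drives, had 23.3, 16.8 and 27.1 RPKM against 18.9, 15.2 and 21.6 RPKM, and was lowest in the samples numbered 2. PSAT1, of serine synthesis, had 99.0, 62.6 and 103 RPKM against 76.5, 55.0 and 86.1 RPKM, again lowest there. DDIT4, a stress-induced inhibitor of mTOR, had 6.41, 5.62 and 16.5 RPKM against 9.21, 3.85 and 11.7 RPKM. ATF4 and DDIT3 thus shared their high values in the samples numbered 2 with PPP1R15A and ATF3, and not with ASNS, PSAT1, DDIT4, TRIB3 or CHAC1. These genes were picked after their values were seen, and the pattern was not tested.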
